A study of Platycodon grandiflorus with 6 samples.

Results

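The unigenes of Platycodon grandiflorus whose best Swiss-Prot match is a protein of cytokinin metabolism or of two-component signalling were compared between callus and leaves. They were the unigenes matched to an adenylate isopentenyltransferase, a cytokinin or zeatin enzyme, a histidine kinase, a histidine-containing phosphotransfer protein or a two-component response regulator. They numbered 188 of the 152777 assembled unigenes, after 7 further matches were left out because their best match in the NR protein database was a peanut (Arachis) sequence. The 188 unigenes fell into 97 assembly clusters, of which 55 were unigenes standing alone. A cluster carries a CL number and gathers contigs of similar sequence, so that it can hold alleles, splice forms or close paralogs of a gene. The matched proteins were mostly from Arabidopsis thaliana (141 unigenes) and rice (33 unigenes, indica and japonica together), so that a symbol such as AHK4 below names the best match in another species and no established ortholog.

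RNA was sequenced from 3 callus libraries, numbered 4, 5 and 6, and 3 leaf libraries, numbered 1, 2 and 3. The calli had been induced from stem segments with nodes on Murashige and Skoog (MS) medium that held the auxin naphthaleneacetic acid (NAA, 1.0 mg/L) and the synthetic cytokinin 6-benzyladenine (6-BA, 0.5 mg/L), and were cultured for 50 d at 25 °C with 12 h of light per day. The leaves came from the original plants, with no treatment named in the labels. Tissue, explant, culture and the cytokinin and auxin in the medium changed together between the groups and cannot be told apart here, and in bulk tissue neither can fewer cells of a type and less RNA per cell. The study's methods call the libraries of a tissue independent biological replicates. Whether each came from its own plant or culture vessel was not given in the sources used here, and the p-values measure the spread between these libraries.

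Cytokinins are adenine derivatives with an isoprenoid or aromatic side chain that promote cell division, shoot formation and, together with auxin, callus growth. Adenylate isopentenyltransferase (IPT) makes the first cytokinin nucleotides, the cytochrome P450 CYP735A hydroxylates them to the trans-zeatin type, and LOG phosphoribohydrolases release the active bases. Cytokinin dehydrogenases (CKX) cleave the side chain and zeatin O-glycosyltransferases (ZOG, ZOX) mask it with a sugar. The signal runs as a phosphorelay, in which membrane histidine kinases of the AHK2, AHK3 and AHK4 kind bind the hormone, histidine-containing phosphotransfer proteins (AHP) carry the phosphate to the nucleus, and type-B response regulators act as transcription factors. Type-A response regulators, which lack the DNA-binding domain, are rapidly induced by cytokinin in Arabidopsis and dampen the signal.

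The libraries held 17963458 to 19444638 expected counts. Counts of unigenes matched to Arachis made up 0.178 to 0.186% of the callus libraries, against 1.17% of leaf 1 and 0.250 to 0.347% of the other leaf libraries. Leaf markers followed the labels, since summed FPKM (fragments per kilobase of transcript, scaled to library size) of chlorophyll a-b binding proteins was 7434 to 7879 in callus and 17932 to 22975 in leaf, and was thus far from absent in the calli. Of the markers of dividing cells, all 3 tested B-type cyclin clusters and 3 of 4 tested A-type cyclin clusters were higher in callus, while of 11 tested histone H4 clusters 2 were higher and 2 lower. Proliferating cell nuclear antigen was higher in 3 and lower in 1 of 7 tested clusters, and ribonucleoside-diphosphate reductase in 3 and 1 of 9. Among all clusters tested, 22.0% were higher and 20.8% lower. The part of photosynthetic and dividing cells in the results below was not tested. Log2 library-scaled counts correlated at 0.953 to 0.982 between callus libraries and 0.893 to 0.917 between leaf libraries, and no pair of libraries was a copy.

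As a whole, the cytokinin and two-component genes were more abundant in callus. Their summed FPKM was 1140, 1215 and 1222 in callus libraries 4, 5 and 6, against 459, 383 and 500 in leaf libraries 1, 2 and 3, so that the tissues did not overlap, and their share of all counts was 0.193 to 0.212% in callus against 0.0713 to 0.0893% in leaf. Summing the counts of all contigs of a cluster, 60 of the 97 clusters had enough counts for a test. The quasi-likelihood test of edgeR called 31 of the 60 higher in callus and 4 lower, with a Benjamini-Hochberg adjusted p no larger than 0.05, and 25 were not called. Among all 32898 clusters tested, 22.0% were called higher and 20.8% lower. The median log2 fold change of the 60 clusters was 0.96, that of all tested clusters −0.05. All callus libraries lay above all leaf libraries, in normalized counts, in 34 of the 60 clusters (31.3% of all clusters tested) and below them in 7 (28.8% of all clusters tested). Without callus 6, 19 clusters were called higher, and without leaf 1, 2 were called lower. With contigs kept apart, 117 of the 188 unigenes could be tested, of which 35 were called higher (14.2% of all 66307 unigenes tested) and 8 lower (12.3% of all tested). The unigene calls depended strongly on single libraries, with 10 higher without callus 5 and 2 without callus 6, and 5 lower without leaf 2 or without callus 4 and 1 without callus 5 or without callus 6.

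**Figure D1:**
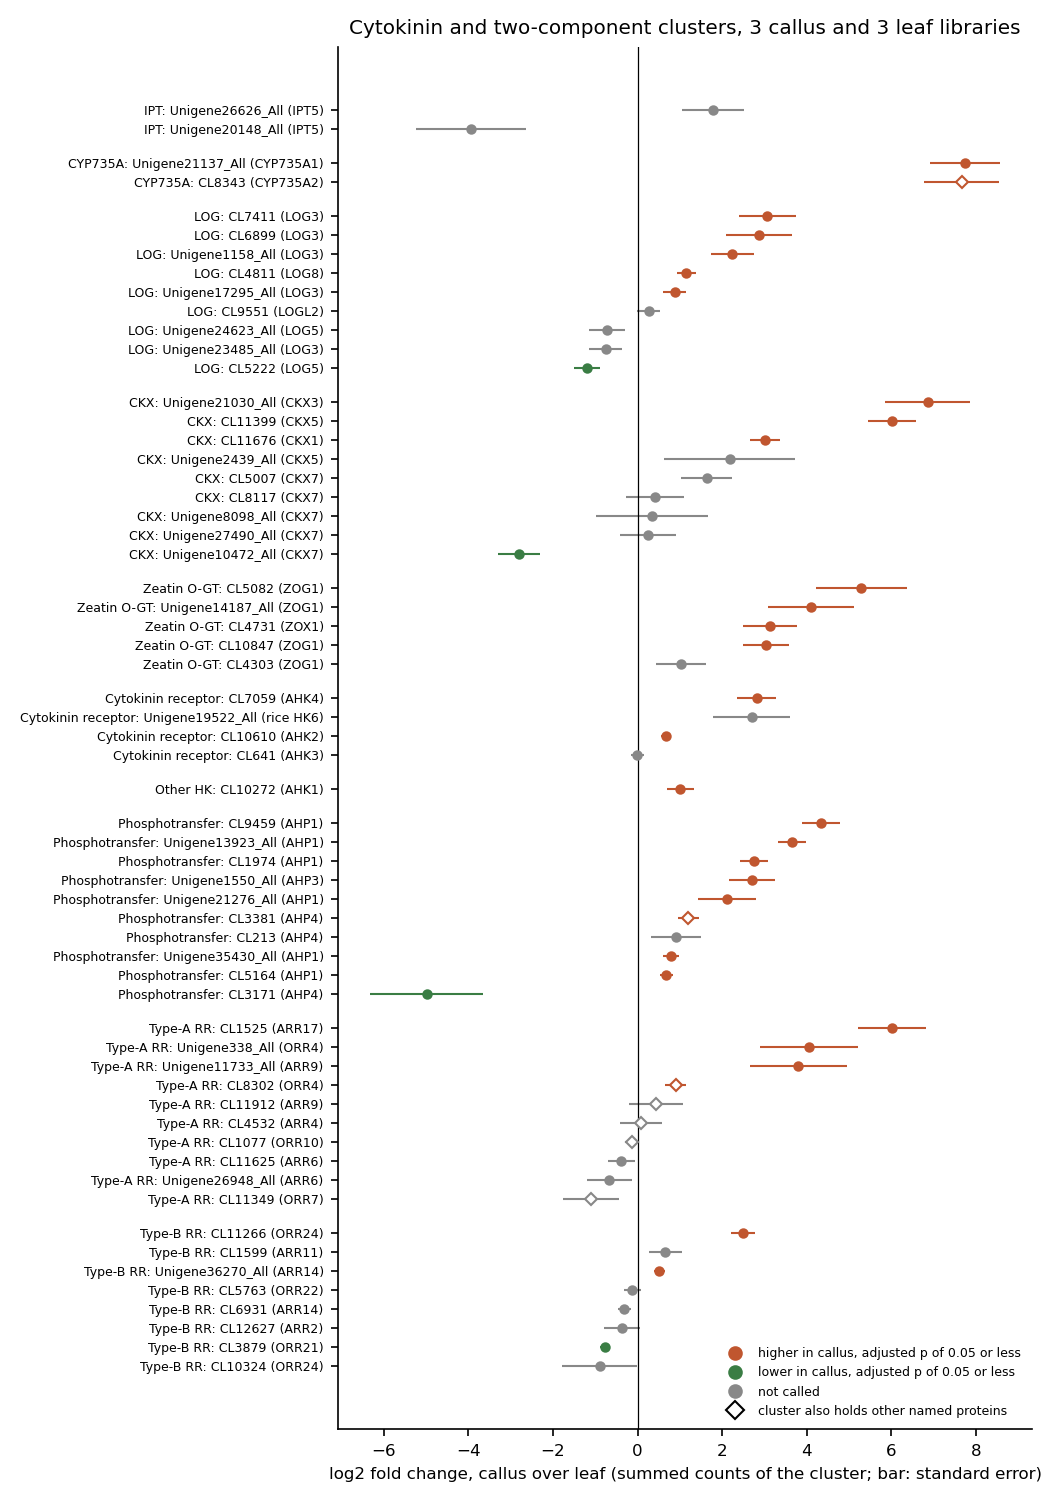
Log2 fold change of each of the 60 tested clusters (x axis, callus over leaf, with its standard error), grouped by role from top to bottom and named with its best-matching protein. Orange points (31 clusters) were called higher and green points (4 clusters) called lower in callus, grey points (25 clusters) were not called, and open diamonds mark clusters that also hold contigs matched to other proteins.

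The clusters for cytokinin synthesis and activation differed among themselves. Of the 3 IPT unigenes, 2 could be tested and neither was called. Unigene26626_All, the most abundant, had 25.5, 10.1 and 4.52 FPKM in callus 4, 5 and 6, against 2.81, 2.43 and 5.91 FPKM in leaf 1, 2 and 3. Callus 4 stood well above the rest, and callus 6 lay below leaf 3, so that the tissues overlapped (log2 fold change 1.78 ± 0.73 SE, adjusted p = 0.0933 with edgeR and 0.0356 with DESeq2; log2 0.88 without callus 4). The other, Unigene20148_All, had 0.32, 0 and 0 FPKM in callus and 1.01, 1.13 and 2.82 FPKM in leaf, without overlap, and its log2 fold change of −3.94 ± 1.29 narrowly missed the threshold (adjusted p = 0.0507; named after its values were seen). Both unigenes matched IPT5 of Arabidopsis, which adds the side chain to adenine nucleotides in plastids.

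Transcripts matched to CYP735A, the hydroxylase that commits cytokinins to the trans-zeatin form, were close to absent from leaves. Unigene21137_All, matched to CYP735A1, had 189, 386 and 231 expected counts in callus (5.78, 12.3 and 7.45 FPKM), against 1, 2 and 0 counts in leaf. Every callus library lay far above every leaf library, and the summed counts differed 246-fold after scaling to library size (exact 95% counting interval 83.9 to 1196, which covers counting error only; adjusted p = 0.00158). A further CYP735A1 match, Unigene21831_All, had 32 counts over the callus libraries and 0 over the leaf libraries, which puts it at least 9.77-fold higher in callus against a floor of 3 counts over the leaf libraries; it was too low for the test. The cluster CL8343 was also called (log2 fold change 7.66 ± 0.89, adjusted p = 0.00198), but not through its cytokinin hydroxylase contig. That contig had 0 counts in all callus libraries and 4 counts in leaf 2, and the 1154 to 1389 counts of the cluster in callus lay in contigs matched to another P450, CYP714B2. The NR match of the contig itself was also to a P450 of the CYP714 kind.

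LOG enzymes, which release the active base from the nucleotide, were represented by 28 unigenes in 16 clusters. Of the 9 tested, 5 were higher in callus, 1 was lower and 3 were not called, the last with log2 fold changes of −0.75 to 0.26. CL4811, matched to LOG8 and the most abundant, had 24.9, 35.8 and 31.7 FPKM in callus, against 16.3, 9.32 and 11.8 FPKM in leaf. The lowest callus library was above the highest leaf library, and the change was modest (2.22-fold, log2 1.15 ± 0.23, adjusted p = 0.00978, called whichever library was left out). CL7411, matched to LOG3, had 5.47, 14.4 and 22.5 FPKM in callus, against 3.60, 0.78 and 1.38 FPKM in leaf (log2 3.07 ± 0.67, adjusted p = 0.0137). It ranged widely among the callus libraries, and without callus 6 it was not called (adjusted p = 0.0543). Its member contig alone, without a contig matched to Arachis, gave a log2 fold change of 3.55.

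CL5222, matched to LOG5, moved the other way. It had 112, 211 and 121 expected counts in callus, against 358, 278 and 286 in leaf, so that each callus library was below each leaf library in counts (log2 −1.20 ± 0.31, adjusted p = 0.0229), although in FPKM callus 5 (14.6) and leaf 2 (14.2) overlapped. Its call was lost without leaf 1 (adjusted p = 0.0513), callus 4 (0.0795) or callus 6 (0.105). Of the low clusters matched to LOG3, CL6899 and Unigene1158_All were called higher in callus. CL6899 had 1.38, 3.21 and 2.04 FPKM in callus and 0.84, 0.07 and 0.13 FPKM in leaf (log2 2.88 ± 0.78, adjusted p = 0.0273), and it kept its call only without leaf 1, where its log2 fold change was 4.19; with another library left out, the adjusted p was 0.0574 to 0.0953. Unigene1158_All had 0.79, 1.12 and 1.96 FPKM in callus and 0.19, 0.29 and 0.28 FPKM in leaf (log2 2.24 ± 0.51, adjusted p = 0.0153, and 0.0629 without callus 6). Unigene23485_All, also a LOG3 match, had 2.09, 1.26 and 1.73 FPKM in callus, against 3.01, 2.59 and 2.53 FPKM in leaf, with each callus library below each leaf library and no call (log2 −0.75 ± 0.40, adjusted p = 0.172; named after its values were seen). Unigene24690_All, matched to LOG7, was too low for the test. It had 69 counts over the callus libraries and 0 over the leaf libraries, at least 21.1-fold higher against the floor of 3 counts. CL5941, matched to LOG5, was also too low for the test (named after its values were seen). It had 8.58, 53.4 and 73.4 expected counts in callus, against 1, 0 and 0 in leaf. Its summed counts differed 124-fold after scaling to library size (exact counting interval 21.8 to 4922, which covers counting error only). The LOG5 matches thus did not all move as CL5222 did. Over the whole family the summed FPKM of members was 75.9, 127 and 125 in callus, against 76.5, 54.5 and 64.2 in leaf, so that callus 4 and leaf 1 overlapped.

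Cytokinin dehydrogenases, which break the hormone down irreversibly, were among the genes with the largest differences. Their summed FPKM was 116, 128 and 138 in callus, against 18.2, 22.3 and 32.3 in leaf. Of 12 clusters 9 were tested, 3 of them were higher in callus, 1 was lower and 5 were not called. CL11676, matched to CKX1 and CKX6, had 25.6, 54.0 and 61.4 FPKM in callus, against 5.48, 2.87 and 2.80 FPKM in leaf (8.07-fold, log2 3.01 ± 0.35, adjusted p = 0.00206). The calli were far above the leaves, with callus 4 the lowest of them. CL11399, matched to CKX5, had 7.02, 20.1 and 17.1 FPKM in callus, against 0.21, 0.31 and 0.09 FPKM in leaf (65.1-fold, log2 6.03 ± 0.56, adjusted p = 0.00109). Unigene21030_All, matched to CKX3, had 7.30, 19.1 and 20.0 FPKM in callus, against 0, 0.23 and 0.13 FPKM in leaf (log2 6.86 ± 1.00, adjusted p = 0.00382, and 6.29 to 7.75 with a library left out, the highest without leaf 2). In these 3 clusters callus 4 was the lowest callus library and all were called whichever library was left out.

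The clusters matched to CKX7, the dehydrogenase that in Arabidopsis lies in the cytosol, behaved differently from one another. CL5007, the most abundant CKX cluster, had 67.0, 27.8 and 32.2 FPKM in callus, against 6.37, 9.16 and 22.7 FPKM in leaf. Callus 4 and leaf 3 stood above the other libraries of their tissue, and the difference did not pass the test (log2 1.64 ± 0.60, adjusted p = 0.0707), while without leaf 3 it did (2.40, adjusted p = 0.0205). Unigene10472_All was lower in callus, with 0.48, 0.41 and 0.22 FPKM against 2.26, 3.31 and 1.85 FPKM in leaf (log2 −2.81 ± 0.49, adjusted p = 0.00676), and was called whichever library was left out. The 3 other tested CKX7 matches had log2 fold changes of 0.25, 0.34 and 0.42 and overlapping libraries.

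Matches to zeatin O-glycosyltransferases, which store zeatin as a sugar conjugate that CKX does not cleave, were the most abundant group of the metabolic genes in callus. Their summed FPKM was 325, 164 and 163 in callus, against 25.5, 17.0 and 40.8 in leaf. These glycosyltransferases belong to a large family, and for 5 of the 13 unigenes the NR match was not named after zeatin, so that their substrate is less sure than their fold change. Of 5 tested clusters 4 were higher in callus and 1 was not called. CL10847, matched to ZOG1 of lima bean, had 156, 71.2 and 72.7 FPKM in callus, against 11.7, 5.91 and 17.7 FPKM in leaf (8.19-fold, log2 3.03 ± 0.55, adjusted p = 0.00719). CL4731, matched to the zeatin O-xylosyltransferase ZOX1 and to ZOG1, had 127, 38.2 and 69.7 FPKM in callus, against 5.07, 6.67 and 16.2 FPKM in leaf (8.72-fold, log2 3.12 ± 0.64, adjusted p = 0.0112, and 3.77 without leaf 3). In both, callus 4 was the highest callus library and leaf 3 the highest leaf library.

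The lower ZOG1 matches were further apart. CL5082 had 13.7, 34.9 and 11.6 FPKM in callus, against 0.08, 0.75 and 2.46 FPKM in leaf (log2 5.29 ± 1.08, adjusted p = 0.0110, and 6.70 without leaf 3). Unigene14187_All had 10.8, 4.36 and 3.67 FPKM in callus, against 0.04, 0.61 and 0.38 FPKM in leaf (log2 4.10 ± 1.01, adjusted p = 0.0204). Its call was lost, with adjusted p of 0.0505 to 0.0627, without leaf 3, callus 4, callus 5 or callus 6. The remaining tested cluster, CL4303, overlapped between the tissues (log2 1.03, adjusted p = 0.202; named after its values were seen).

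**Figure D2:**
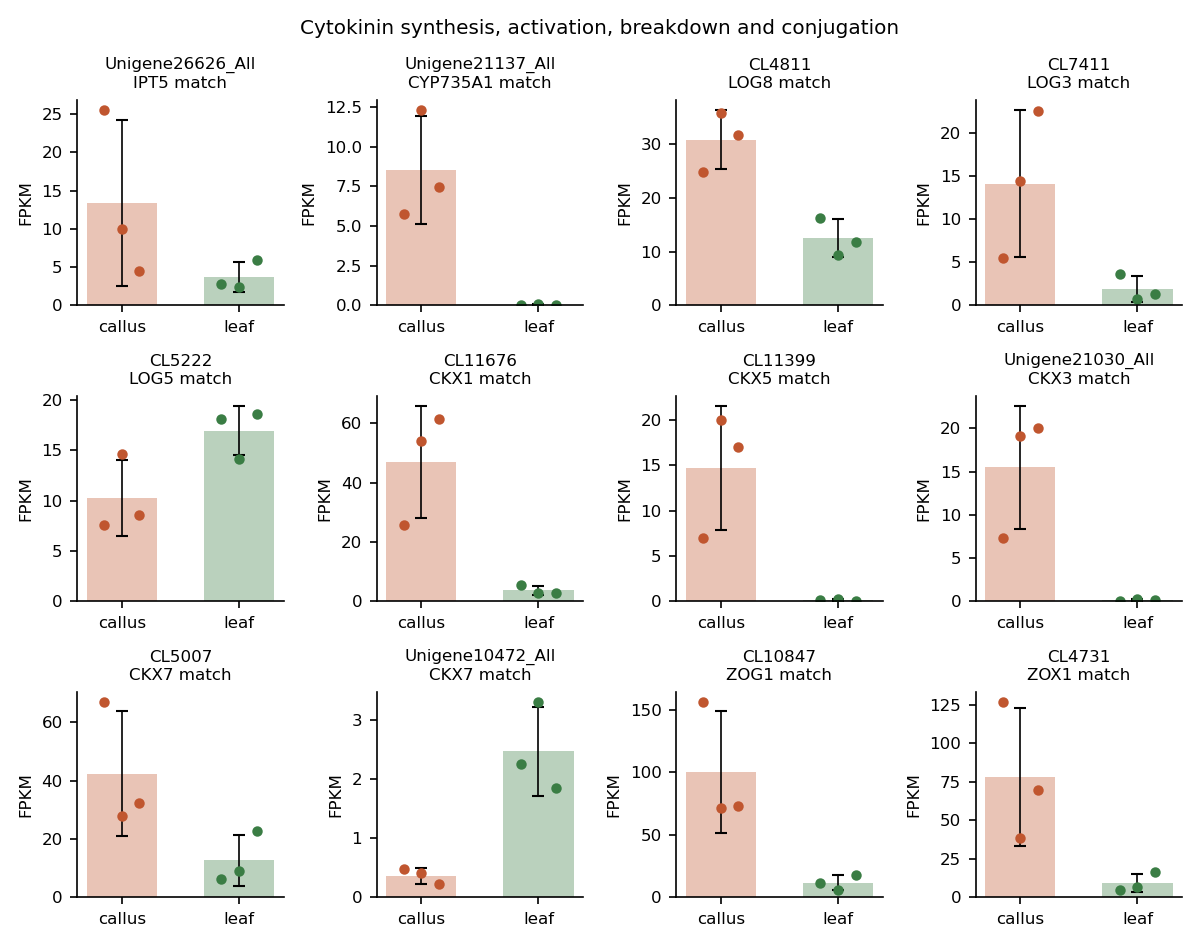
FPKM (y axis, linear, from 0, a scale per panel) of 12 clusters of cytokinin synthesis, activation, breakdown and conjugation in 3 callus libraries (orange, left, in the order 4, 5, 6) and 3 leaf libraries (green, right, in the order 1, 2, 3). Points are libraries, bars means and error bars SD; CL11399, CL11676 and Unigene21030_All were near the baseline in leaves, whereas CL5222 and Unigene10472_All were higher in leaves.

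Cytokinin receptors formed 4 clusters, all of them tested, with a summed FPKM of 102 ± 13.6 in callus and 49.5 ± 1.09 in leaf (SD, n = 3 each). CL7059, matched to AHK4, the receptor that in Arabidopsis is prominent in roots and needed for shoot formation from callus, had 33.3, 50.3 and 57.9 FPKM in callus, against 5.31, 5.04 and 11.6 FPKM in leaf. The tissues were well separated (7.06-fold, log2 2.82 ± 0.47, adjusted p = 0.00554, and 3.48 without leaf 3), and the call held whichever library was left out. CL10610, matched to AHK2, had 18.9, 24.8 and 25.9 FPKM in callus, against 11.1, 9.05 and 10.2 FPKM in leaf (1.60-fold in counts, log2 0.68 ± 0.12, adjusted p = 0.00701), and likewise kept its call. Unigene19522_All, matched to the rice histidine kinase HK6, had 6.70, 3.43 and 4.71 FPKM in callus and 0.80, 1.39 and 0 FPKM in leaf, without overlap but also without a call (log2 2.70 ± 0.91, adjusted p = 0.0547; named after its values were seen).

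The AHK3 match, CL641, did not follow the other receptors. Its total was 32.7, 37.2 and 33.2 FPKM in callus, against 33.1, 35.1 and 26.9 FPKM in leaf, overlapping and with a log2 fold change of −0.00 ± 0.15 (adjusted p = 0.985). Its sign was positive with DESeq2 and with any library but leaf 3 left out, at values up to 0.10 with 1 library left out, and never called. The receptor with the highest level per length thus was the AHK3 match in leaves (31.7 ± 4.30 FPKM, against 7.31 ± 3.71 FPKM for the AHK4 match; SD, n = 3). In callus the AHK4 match averaged 47.2 ± 12.6 FPKM and the AHK3 match 34.4 ± 2.43 FPKM (SD, n = 3 each), of which callus 4 had nearly the same level of both.

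Within CL641, however, the tissues used different contigs. CL641.Contig5_All had 182, 286 and 165 expected counts in callus and 0 in each leaf library (adjusted p = 0.00668), whereas CL641.Contig2_All had 0 in each callus library and 138, 270 and 178 in leaf (adjusted p = 0.00777), and CL641.Contig8_All 0 in each callus library and 218, 885 and 107 in leaf (adjusted p = 0.0191). Contig5 made up 6.25 to 9.53% of the cluster's counts in callus, and Contig2 5.19 to 9.82% in leaf. The largest contig by counts, CL641.Contig6_All, was found in all libraries (47.1 to 59.2% in callus, 33.2 to 45.9% in leaf). Counts of 0 also occurred between libraries of the same tissue. In leaf 1, 2 and 3, Contig3 had 857, 0 and 430 counts and Contig7 had 0, 0 and 93.1. Contig9 had 95.7 counts in leaf 1 and 0 in each other library. Calls of single unigenes depended strongly on single libraries, as stated above. CL641 was the only member cluster with contigs called in opposite directions. How reads shared by such similar contigs were divided was set by the estimation of the expected counts, and whether the contigs are splice forms, alleles or paralogs was not tested.

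**Figure D3:**
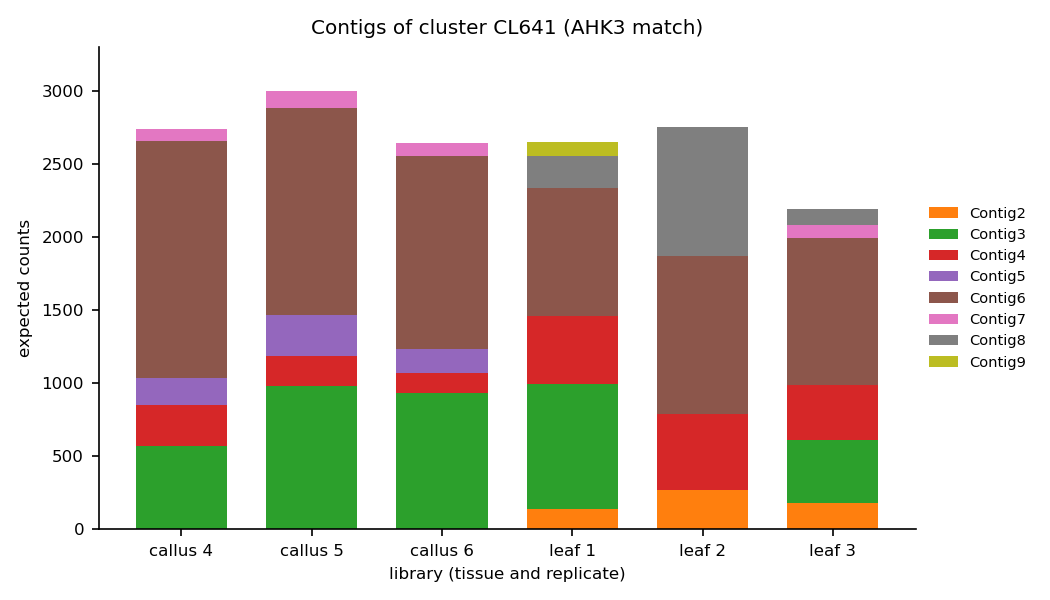
Expected counts (y axis) of the contigs of CL641, the AHK3 match, stacked for each library (x axis, callus 4 to 6 left, leaf 1 to 3 right). The column heights are alike in both tissues, while Contig5 (purple) occurs only in the 3 callus libraries and Contig2 (orange) and Contig8 (grey) only in the 3 leaf libraries.

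Apart from CL10272, the clusters of histidine kinases other than the cytokinin receptors had few counts. Of 11 clusters, matched to AHK1, AHK5, CKI1 and rice HK2, only CL10272 could be tested. It matched AHK1, which in Arabidopsis is known for responses to osmotic stress and lacks the cytokinin-binding domain. It had 939, 1689 and 2349 expected counts in callus, against 730, 747 and 744 in leaf (2.02-fold, log2 1.01 ± 0.32, adjusted p = 0.0426). The 3 leaf libraries were nearly equal and the callus libraries ranged widely, and the call was lost, at adjusted p of 0.0874 to 0.103, when any library but callus 4 was left out. In leaf 1, 60.3% of its counts lay in a contig that was not the main one of the other libraries.

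Phosphotransfer proteins, which relay the phosphate from the receptors to the nucleus, were the group with the largest number of clusters called higher. Of 10 tested clusters 8 were higher in callus, 1 was lower and 1 was not called, and the summed FPKM of the members was 303, 410 and 411 in callus, against 145, 99.6 and 105 in leaf. CL1974, matched to AHP1 and AHP3 and the most abundant, had 113, 208 and 206 FPKM in callus, against 31.5, 22.3 and 16.2 FPKM in leaf (6.78-fold, log2 2.76 ± 0.33, adjusted p = 0.00225). The lowest callus library was callus 4, still well above the highest leaf library. Unigene13923_All, an AHP1 match, varied little within tissues, with 76, 81.1 and 74.3 FPKM in callus, against 3.66, 5.63 and 7.92 FPKM in leaf (12.6-fold, log2 3.65 ± 0.33, adjusted p = 0.00102).

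Less abundant AHP matches moved the same way. CL9459, matched to AHP1, had 5.70, 5.81 and 3.64 FPKM in callus, against 0.24, 0.26 and 0.20 FPKM in leaf (20.1-fold, log2 4.33 ± 0.45, adjusted p = 0.00138). Unigene1550_All, matched to AHP3, had 2.07, 4.37 and 5.62 FPKM in callus, against 0.57, 0.36 and 0.77 FPKM in leaf (6.5-fold, log2 2.70 ± 0.55, adjusted p = 0.0108). These 4 AHP clusters kept their calls whichever library was left out. Other abundant AHP1 matches were called with smaller changes, and were named after their values were seen. CL5164 averaged 61.3 FPKM in callus and 36.2 FPKM in leaf (1.60-fold, log2 0.68 ± 0.16, adjusted p = 0.0159). Unigene35430_All averaged 38.7 FPKM in callus and 21.1 FPKM in leaf (1.72-fold, log2 0.78 ± 0.19, adjusted p = 0.0192). AHP1 and AHP3 are positive, largely interchangeable relays in Arabidopsis.

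Matches to AHP4 differed from the AHP1 and AHP3 matches and among themselves. CL3171 had 2, 2 and 24 expected counts in callus, against 622, 76 and 139 in leaf (log2 −4.99 ± 1.34, adjusted p = 0.0271). Leaf 1 was far above the other leaf libraries and callus 6 above the other calli, and the call was lost without leaf 1 (−3.66, adjusted p = 0.0545), callus 4 (0.0821) or callus 5 (0.0900), while without callus 6 the log2 fold change was −7.09. The AHP4 contig of CL3381 had 0.36, 0.19 and 0 FPKM in callus, against 8.46, 3.09 and 3.56 FPKM in leaf (log2 −4.87, adjusted p = 0.0133; named after its values were seen). CL213, matched to AHP4 and to a rice pseudo-phosphotransfer protein, had 14.4, 11.6 and 10.2 FPKM in callus, against 2.21, 8.94 and 7.70 FPKM in leaf, without overlap but also without a call (log2 0.91 ± 0.59, adjusted p = 0.253; likewise named after its values were seen). CL3381 as a whole counted among the 8 higher clusters (log2 1.19, adjusted p = 0.0113), and also holds 15 contigs matched to other proteins. Leaf 1 was the highest leaf library for CL3171 and for the AHP4 contig of CL3381. It was also the library with the largest share of Arachis-matched counts, and the part of these counts was not tested. Without the Arachis-matched unigenes no call among the named clusters changed. That setting cannot decide the question for CL3171, since members exclude such unigenes and all contigs of CL3171 are members.

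**Figure D4:**
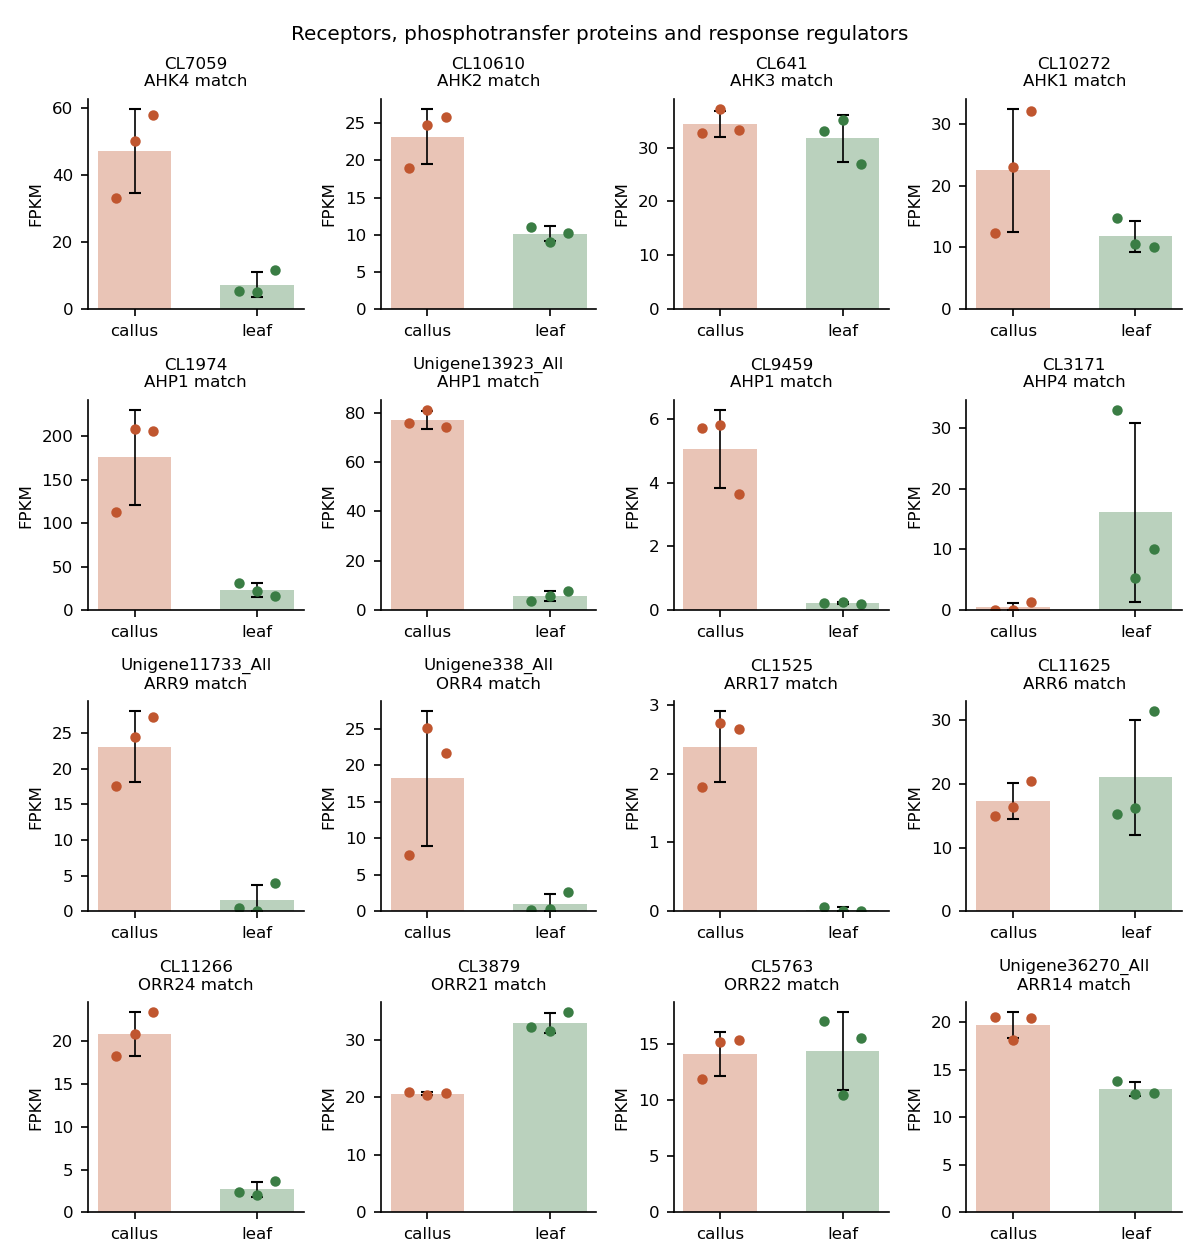
FPKM (y axis, linear, from 0, a scale per panel) of 16 clusters of receptors and AHK1, phosphotransfer proteins, type-A and type-B response regulators in 3 callus libraries (orange, left, in the order 4, 5, 6) and 3 leaf libraries (green, right, in the order 1, 2, 3). Points are libraries, bars means and error bars SD; the callus points lie far above the leaf points for CL7059, CL1974, Unigene13923_All and CL11266, below them for CL3171 and CL3879, and among them for CL641, CL11625 and CL5763.

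The type-A response regulators, the feedback genes of the pathway, split into a few that were far higher in callus and abundant ones that were not called. Of 10 tested clusters 4 were higher in callus and 6 were not called, with log2 fold changes of −1.10 to 0.44 for the 6. Both ends of that range came from clusters that also hold other proteins, CL11349 and CL11912. Their member contigs alone gave log2 fold changes of 1.99 and 4.17. The former was not called (adjusted p = 0.154), and the place of the CL11349 contig among the regulators is doubtful, as described below. The summed FPKM of the members was 92.7, 133 and 129 in callus, against 38.2, 46.9 and 105 in leaf, so that callus 4 and leaf 3 overlapped. Unigene11733_All, matched to ARR9, had 17.5, 24.5 and 27.2 FPKM in callus, against 0.46, 0.11 and 3.99 FPKM in leaf (log2 3.80 ± 1.15, adjusted p = 0.0391). Unigene338_All, matched to rice ORR4, had 7.78, 25.2 and 21.8 FPKM in callus, against 0.15, 0.26 and 2.60 FPKM in leaf (log2 4.06 ± 1.17, adjusted p = 0.0333). In both, leaf 3 stood above the other leaf libraries without reaching the calli. Without leaf 3 their log2 fold changes were 6.19 and 6.38; the ARR9 match was not called without leaf 1, callus 4, callus 5 or callus 6 (adjusted p = 0.0751 to 0.104) and the ORR4 match not without leaf 2, callus 4, callus 5 or callus 6 (0.0527 to 0.0940).

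CL1525, matched to ARR17, was low but separate, with 26, 38 and 32 expected counts in callus, against 1, 0 and 0 in leaf. The counts, scaled to library size, differed 88.0-fold (exact 95% counting interval 15.4 to 3510; adjusted p = 0.0030), and the call held whichever library was left out. The abundant type-A clusters overlapped between tissues. The member contigs of CL4532, matched to ARR4 and ARR6, had 35.2, 44.8 and 35.7 FPKM in callus, against 18.7, 26.4 and 52.4 FPKM in leaf (log2 0.11, adjusted p = 0.858; named after its values were seen), with leaf 3 the highest of all. CL11625, matched to ARR6 and ARR7, had 15.0, 16.4 and 20.4 FPKM in callus, against 15.3, 16.3 and 31.4 FPKM in leaf (log2 −0.39 ± 0.32, adjusted p = 0.365; likewise named after its values were seen). Leaf 3 was the highest leaf library in 7 of the 10 tested type-A clusters, in 24 of all 60 tested members and in 36.7% of all clusters tested.

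In some type-A clusters the response regulator contigs were a small part of the cluster. CL1077 was the most abundant only through contigs matched to other proteins (94.8 to 129 FPKM in callus and 93.4 to 116 FPKM in leaf; log2 −0.13, adjusted p = 0.574), and its contig matched to rice ORR10 had 3.57, 4.73 and 4.02 FPKM in callus, against 0.84, 1.30 and 9.38 FPKM in leaf. CL8302 was called as a whole (log2 0.91 ± 0.25, adjusted p = 0.0280), although not without leaf 1 (0.0607), leaf 2 (0.0614), callus 5 (0.0921) or callus 6 (0.0979). Its 2 contigs matched to ORR4 alone gave 2.04, 3.63 and 4.09 FPKM in callus, against 0, 0.10 and 0.22 FPKM in leaf (log2 4.55, adjusted p = 0.0122). The contigs of CL11912 matched to ARR9 and rice ORR9 gave 5.78, 7.05 and 10.1 FPKM in callus, against 0, 0.15 and 1.14 FPKM in leaf (log2 4.17, adjusted p = 0.0476), whereas the whole cluster was not called (0.44, adjusted p = 0.604; named after its values were seen). The contig of CL11349 matched to rice ORR7 had a phosphatase as its NR match, so that its place among the regulators is doubtful. With member contigs summed alone in every cluster, 30 of 59 tested clusters were higher in callus and 5 were lower.

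**Figure D5:**
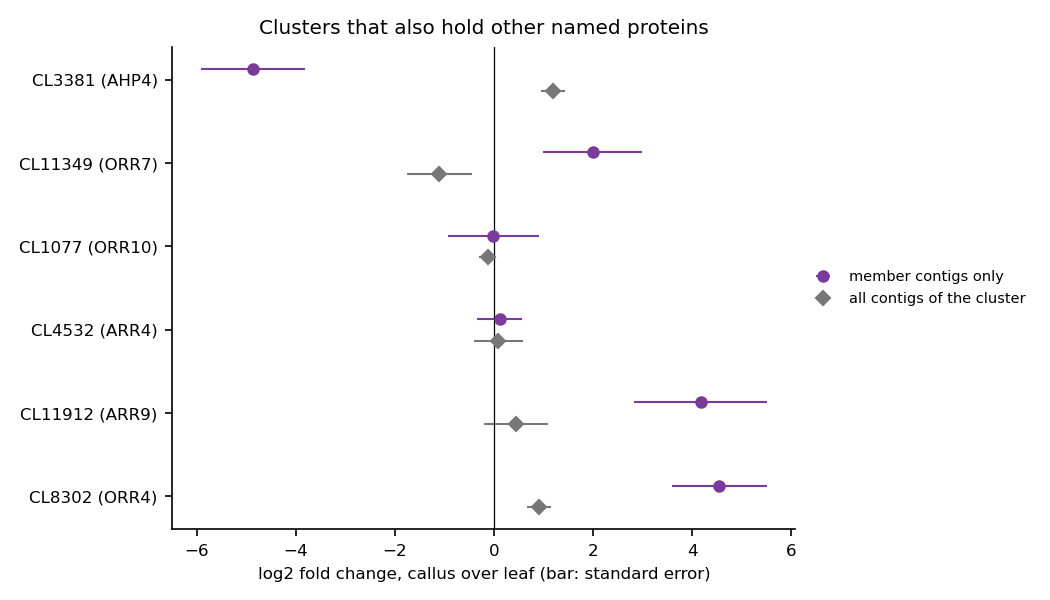
Log2 fold change (x axis, callus over leaf, with its standard error) of the 6 clusters that hold contigs of other named proteins and could be tested both ways, from the member contigs only (purple circles) and from all contigs of the cluster (grey diamonds). The values were −4.87 and 1.19 for CL3381, 1.99 and −1.10 for CL11349, 4.17 and 0.44 for CL11912 and 4.55 and 0.91 for CL8302, and close together for CL1077 and CL4532.

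Type-B response regulators, the transcription factors at the end of the relay, differed little as a group, with a summed FPKM of 94.1 ± 6.15 in callus and 82.2 ± 6.67 in leaf (SD, n = 3 each). Of 8 tested clusters 2 were higher in callus, 1 was lower and 5 were not called (log2 fold changes of −0.90 to 0.66). Among all clusters tested, 22.0% were higher and 20.8% lower. The low end, −0.90, came from CL10324 (named after its values were seen). Its contig matched to rice ORR24 had a transposon polyprotein as its NR match, so that its place among the regulators is doubtful. The most abundant, CL3879, matched to rice ORR21 and to ARR1, had 20.9, 20.3 and 20.7 FPKM in callus, against 32.2, 31.5 and 34.7 FPKM in leaf. Both tissues varied little, so that this small difference was called whichever library was left out (0.589-fold, log2 −0.76 ± 0.12, adjusted p = 0.00451). CL11266, matched to rice ORR24, had 18.3, 20.9 and 23.4 FPKM in callus, against 2.37, 1.98 and 3.71 FPKM in leaf (5.61-fold, log2 2.49 ± 0.28, adjusted p = 0.00181), also called in every case. Unigene36270_All, matched to ARR14, had 20.5, 18.2 and 20.5 FPKM in callus, against 13.8, 12.5 and 12.6 FPKM in leaf (1.43-fold, log2 0.52 ± 0.13, adjusted p = 0.0246), and was not called without leaf 2, leaf 3, callus 4 or callus 6 (0.0511 to 0.0781). In callus the matches to ORR21 and ARR1, to ORR24 and to ARR14 thus had similar levels per length (20.6 ± 0.295, 20.9 ± 2.54 and 19.7 ± 1.34 FPKM), while in leaf they were 32.8 ± 1.70, 2.69 ± 0.907 and 12.9 ± 0.720 FPKM (SD, n = 3 each). CL5763, matched to ORR22, was not called, with 11.9, 15.2 and 15.3 FPKM in callus and 17.1, 10.4 and 15.6 FPKM in leaf (log2 −0.12, adjusted p = 0.650; named after its values were seen).

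The 37 untested clusters were low, with a median of 6 expected counts in their highest library and 81.8 counts as the highest value. Of these, 14 (37.8%) had counts only in callus and 5 (13.5%) only in leaf, against 10.6% and 44.1% of the 56197 untested clusters with a count, but 10 of the 14 rested on fewer than 10 counts in all. The ORR23 match Unigene27784_All had 17, 13 and 4 counts in callus and 0 in leaf, at least 10.4-fold higher against the floor. The type-C regulator Unigene22283_All, matched to ARR24, had 4, 2 and 0 counts in callus and 0, 1 and 7 in leaf.

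Genes that handle or read cytokinin beyond these enzymes and relays were taken from a wider list of 210 unigenes in 83 clusters. Of 69 tested clusters 28 were higher in callus and 14 lower (median log2 fold change 1.28), against 22.0% higher and 20.8% lower among all clusters tested. Over the whole list the lower ones were thus about as frequent as among all clusters. However, 6 of the 14 lower clusters were response regulator-like proteins, which belong to the circadian clock and made up 10 of the 69 tested clusters. Without callus 5 the lower clusters of the list were 7, and without callus 6 they were 6. CL6694, matched to ABCG14, the transporter that in Arabidopsis loads cytokinin for the way from root to shoot, had 21.0, 49.4 and 57.4 FPKM in callus, against 3.65, 2.81 and 3.56 FPKM in leaf (log2 3.61 ± 0.37, adjusted p = 0.00140). All 3 tested UGT76C clusters, matched to enzymes that attach glucose to the ring of cytokinins, were higher, led by Unigene10358_All with 40.7, 40.5 and 66.7 FPKM in callus, against 3.57, 5.72 and 8.14 FPKM in leaf (log2 2.98 ± 0.38, adjusted p = 0.00270). Of 8 tested UGT85A clusters 6 were higher, a family in which only some enzymes act on zeatin. Unigene24174_All, matched to UGT85A8, had 258, 200.4 and 200.6 FPKM in callus, against 0, 2.27 and 0.70 FPKM in leaf (log2 7.69 ± 1.32, adjusted p = 0.00628).

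Salvage genes were represented by adenosine kinase and adenine phosphoribosyltransferase. CL12086, matched to adenosine kinase, which turns cytokinin ribosides back into nucleotides, had 184, 116 and 152 FPKM in callus, against 26.4, 17.5 and 38.7 FPKM in leaf (log2 2.39 ± 0.35, adjusted p = 0.00382). Adenine phosphoribosyltransferases were higher in 4 of 13 tested clusters, which with so few clusters is not set apart from the 22.0% higher among all clusters tested. The most abundant of the called ones, Unigene37462_All, had 105, 148 and 109 FPKM in callus, against 26.9, 24.6 and 36.1 FPKM in leaf (log2 1.95 ± 0.21, adjusted p = 0.00155). Purine permeases, which carry purines and in Arabidopsis also cytokinins, were higher in 4 and lower in 3 of 13 tested clusters, and equilibrative nucleotide transporters higher in 3 and lower in 3 of 9, which with so few clusters is not set apart from the shares among all clusters.

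Unigene22676_All, matched to purine permease PUP1, had 43.3, 37.9 and 45.6 FPKM in callus, against 3.35, 2.75 and 5.45 FPKM in leaf (log2 3.36 ± 0.31, adjusted p = 0.00102). CL11256, matched to the nucleotide transporter ENT8, was lower in callus, with 20.3, 24 and 21.1 FPKM against 31.9, 41.0 and 40.1 FPKM in leaf (log2 −0.82 ± 0.13, adjusted p = 0.00450). The tRNA-type isopentenyltransferases, which in Arabidopsis give rise to cis-zeatin, were lower in 2 of 5 tested clusters, against 20.8% of all clusters tested. Among the lower, CL5348 had 15.4, 15.5 and 15.6 FPKM in callus, against 50.2, 35.1 and 33.2 FPKM in leaf (log2 −1.42 ± 0.18, adjusted p = 0.00278).

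Response regulator-like proteins, which lack the phosphate-accepting residue and belong to the circadian clock, were higher in 3 and lower in 6 of 10 tested clusters. The shares among all clusters tested, for these and the groups below, were 22.0% higher and 20.8% lower. CL7396, matched to APRR5 and APRR9, had 54.5, 57.8 and 52.6 FPKM in callus, against 246, 389 and 217 FPKM in leaf (log2 −2.43 ± 0.27, adjusted p = 0.00181). The hour at which each tissue was collected was not given in the sources used here. Cytokinin response factors (CRF), which act beside the type-B regulators, were higher in 2 of 3 tested clusters, with the CRF5 match Unigene26587_All at 6.03, 14.7 and 8.93 FPKM in callus, against 1.96, 2.69 and 2.25 FPKM in leaf (log2 1.99 ± 0.40, adjusted p = 0.0108). Of 3 tested clusters of KMD-type F-box proteins, which in Arabidopsis direct type-B regulators to breakdown, 1 was higher. This was Unigene14514_All, with 8.62, 44.4 and 8.69 FPKM in callus, against 0.16, 0.29 and 0.48 FPKM in leaf (log2 5.89 ± 0.92, adjusted p = 0.00470), and callus 5 stood far above the other calli.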

How the data were processed

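Total RNA of 3 callus and 3 leaf samples had been sequenced, assembled de novo (Trinity, TGICL) and quantified by the authors with Bowtie2 2.2.5 and RSEM 1.2.8. The deposited files give, per unigene and library, expected counts (RSEM estimates, not normalized), FPKM values (fragments per kilobase of effective length, scaled to library size) and effective lengths. A deposited annotation table supplied protein matches and unigene lengths; its fold changes, p-values and calls by the authors were not used. Replicate numbers follow the sample titles.

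Expected counts were rounded to whole numbers, summed per CL cluster or kept per unigene, and tested over all features with edgeR 4.0.16 (TMM, filterByExpr, glmQLFit and glmQLFTest, default settings) in R 4.3.3, callus over leaf. The Benjamini-Hochberg threshold was an adjusted p of 0.05, since edgeR called no unigene at the thresholds in the study's methods (0.001 and a 2-fold change), which were kept as an alternative. SE is the log2 fold change divided by the root of the F statistic. FPKM of a cluster is the sum over its contigs. The fits were tested on simulated data. With 3 against 3 libraries an exact permutation test of a single value cannot go below p = 0.1 and was not used.

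Members, gene lists and tests were chosen with earlier results of these data known. Clusters are named that were the most abundant of their role, or called with a mean of 1 FPKM or more in the tissue where they were higher, at most 4 each way per role by size of change; exceptions are marked, and of the wider list the most abundant called cluster of a kind is named. Names come from the annotation and their families were checked against NR and Pfam, which carried a family word for 172 of the 188 unigenes. Alternatives were DESeq2 1.42.0, its size factors in edgeR, no filter, robust fitting, no Arachis-matched unigenes, member contigs only, limma 3.58.1 on log2(FPKM + 0.01) or log2(FPKM + 1), and leaving out each library. No nucleotide or protein sequence was used here.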

Additional observations from a re-analysis of the deposited data

How the results depend on the processing

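Of the cluster counts, the 31 higher and 4 lower kept to 30 or 31 and to 3 or 4 with DESeq2 size factors, no filter, robust fitting or without Arachis-matched unigenes, and were 39 and 6 with DESeq2 and 30 and 5 with member contigs only. Leaving out 1 library gave 19 to 33 higher (19 without callus 6) and 2 to 4 lower (2 without leaf 1). At an adjusted p of 0.001 and a 2-fold change, edgeR called 0 member clusters, 0 member unigenes and 0 clusters of the wider list in either direction; the smallest adjusted p was 0.00102 among the member clusters and among those of the wider list, and 0.00500 among the member unigenes. At an unadjusted p under 0.05 it gave 39, 69 and 47, and DESeq2 at the same strict thresholds called 22 clusters higher and 2 lower, 32 unigenes higher and 5 lower, and 25 clusters of the wider list higher and 5 lower. The 35 higher unigenes were 60 with DESeq2, 23 with no filter, 49 and 50 with limma and 2 to 42 with 1 library left out, and the 8 lower ones 4 with no filter, 12 with DESeq2, 11 with either limma setting and 1 to 8. The wider list's 28 higher clusters ranged from 20 to 31 and its 14 lower ones from 6 to 14 with 1 library left out, and the lower ones were 9 with no filter. With 1 library left out the fit keeps a tissue at 2 libraries; the cause of other shifts was not tested.

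Of 34 named tested clusters, 30 were called and 19 of these stayed called whichever library was left out. With DESeq2, CL5007 (adjusted p = 0.0242) and Unigene26626_All (0.0356) also passed, and with no filter CL5222 (0.0964), CL6899 (0.0708), Unigene1158_All (0.0570) and CL8302 (0.0516) did not. The uncalled log2 fold change of CL641 was 0.11 with DESeq2, 0.031 with its size factors, 0.15 with no filter and −0.091 to 0.10 with 1 library left out, and that of CL1077 was 0.024 with no filter. Low clusters are limited by their counts, as 37 of the 97 were not tested. No paired analysis was possible because the tissues share no replicate number.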
